A study of Rattus norvegicus with 36 samples.

Results

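The hearts of untrained male Wistar Kyoto rats were compared at 9 and at 24 weeks of age. The 7 hearts of sedentary rats killed at 24 weeks were set against the 7 hearts of sedentary rats killed at 9 weeks, 14 of the 36 arrays of the series. All were Control rats, the male offspring of sham-operated mothers raised in litters of normal size, and none of these 14 rats ran on the treadmill. The remaining rats were early exercise rats, trained from week 5 to week 9 and killed at 9 (7 rats) or 24 weeks (8 rats), and later exercise rats trained from week 20 to week 24 (7 rats). Each array held RNA of the whole heart of 1 rat, so the 2 ages are different animals, and a p value measures the spread between rats. Males of one litter had been placed in different groups, and the litter of each rat is not given in the labels.

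The rat heart still grows at these ages. After the first weeks of life its muscle cells have largely stopped dividing and grow by enlargement, while fibroblasts lay down the collagen and elastin of the wall, and those proteins then last for a long time. The same period includes puberty and the end of rapid body growth. The comparison asks which transcripts moved in the untrained heart between youth and adulthood.

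Values are log2 probe signals after background correction and quantile normalization, as the authors deposited them. Of 22523 probes, 10956 had a detection score of 0.95 or more on at least 7 of the 36 arrays and were tested, among them 8038 probes for 7904 named genes. Just inside that limit were 254 probes detected on 7 arrays (median signal 5.72, median absolute log2 change with age 0.0505), and just outside were 269 probes detected on 6 (5.70 and 0.0507). Mean raw signal ran from 470 to 1214 (median 815) at 9 weeks and from 715 to 1307 (median 897) at 24 weeks. Its ratio was 1.11 (two-sided exact permutation p = 0.435), and 1.09, 1.02 and 1.29 on chips 1, 2 and 3, each of which held both ages. Normalized sedentary arrays correlated at 0.98 to 0.995 with one another. Of the 12 cardiomyocyte markers, 10 were measured and all 10 were detected on all 14 arrays, with a mean signal of 13.02 to 13.24 (median 13.14) at 9 weeks and 13.04 to 13.35 (median 13.23) at 24 weeks.

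Age moved a small share of the heart transcriptome, in both directions, and most changes were modest. At an adjusted p below 0.05 in limma, 719 probes differed, which is 6.56% of those tested, 381 higher at 24 weeks (3.48%) and 338 lower (3.09%). The median change of these probes was 0.449 on the log2 scale, or 1.37-fold. Only 18 rose and 27 fell by more than 2-fold. At an unadjusted p below 0.05 there were 2127 (19.4%). The thresholds of the study's methods, an unadjusted p and a minimum fold, gave 775 probes (7.07%), 471 higher (4.30%) and 304 lower (2.77%). For 245 probes (2.24% of all), no rat of one age overlapped any rat of the other, 131 of them higher in adults (1.20%) and 114 lower (1.04%). The split between higher and lower depended on scaling: when arrays were scaled to a common median in place of quantile normalization, 69 probes were higher and 194 lower. Of the 94 named genes that passed, 78 also passed with each of the 14 rats left out in turn, and 16 did not: Mx1, Mx2, Pcna, Pcolce, Igfbp3, Actc1, Atp1b1, Slc25a20, Acot1, Aldoc, Nqo1, Pf4, Ttr, Hbb-b1, Lgals5 and Sfrp2. The median log2 change over all probes was 0.0048 here and -0.036 under that scaling.

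**Figure D1:**
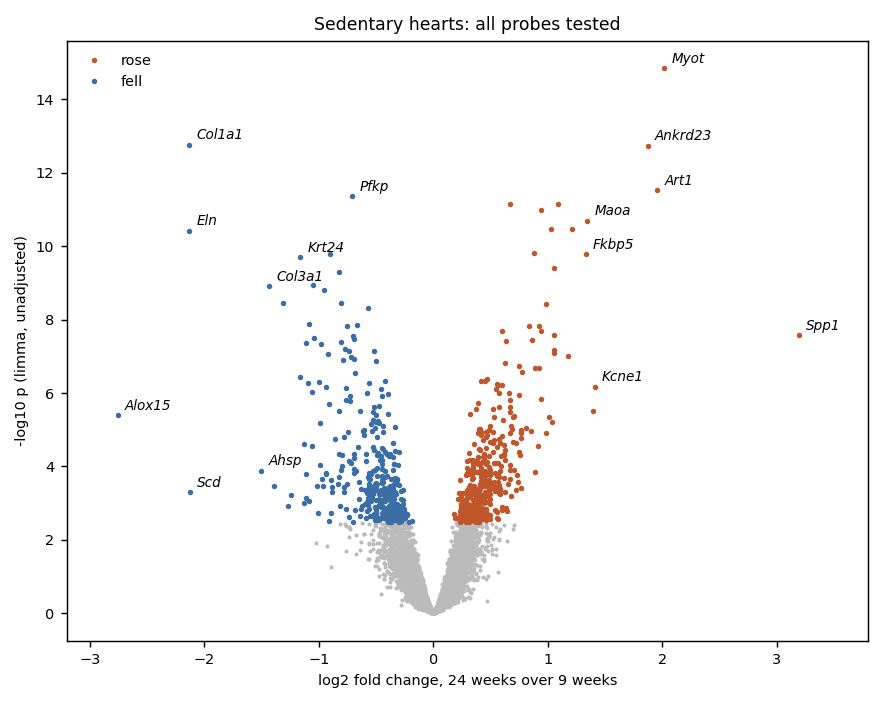
Each point is 1 of the 10956 probes, with its log2 fold change (24 weeks over 9 weeks) on the x axis and -log10 of the unadjusted limma p on the y axis; orange points rose and blue points fell at an adjusted p below 0.05. Myot, Ankrd23, Art1 and Spp1 stand at the upper right, and Col1a1, Eln and Alox15 at the left.

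The clearest decline was in the extracellular matrix. Of 12 collagen genes measured, 9 fell and none rose, against 3.09% of all probes that fell, and the median log2 fold change of the list was -0.76 against 0.0048 over all probes. All 9 had separate ranges at the 2 ages, against 1.04% of all probes that were lower without overlap. Col5a3 (-0.35), among the 9, was dim, detected on 3 of 7 young and 0 of 7 adult arrays. Col1a1 encodes the first chain of type I collagen, the main fibre of the heart wall. Its signal was 9.44 to 10.06 (median 9.72) in the 7 rats of 9 weeks and 7.12 to 7.86 (median 7.57) in the 7 rats of 24 weeks. The lowest young rat lay well above the highest adult rat, and the adult signal was 0.227 times the young signal (log2 fold change -2.14 ± 0.19 SE, adjusted p = 6.75e-10). Within chips 1, 2 and 3 the difference was -2.15, -2.02 and -2.29.

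Col3a1, the type III collagen that mixes with type I in distensible tissue, had 10.48 to 11.17 (median 10.89) at 9 weeks and 9.19 to 9.98 (median 9.33) at 24 weeks. Again no rat crossed over (log2 fold change -1.44 ± 0.18 SE, adjusted p = 6.7e-07). Col5a1, a chain of the type V collagen on which fibrils start, fell to 0.402 times (log2 fold change -1.31 ± 0.17 SE, adjusted p = 1.71e-06), and its partner Col5a2 to 0.536 times (log2 fold change -0.9 ± 0.1 SE, adjusted p = 1.21e-07). Col1a2, the second chain of type I collagen, fell less, to 0.594 times (log2 fold change -0.75 ± 0.1 SE, adjusted p = 5.61e-06), with a signal of 14.09 to 14.55 (median 14.25) that became 13.28 to 13.78 (median 13.6). The Col1a2 probe was among the brighter ones named. A signal near the upper end of the array scale can understate a change, and whether it did here was not tested. Basement membrane collagens were also lower, Col4a1 by a log2 of -0.77 and Col15a1 by -0.76, and so was Col6a1 at -0.72. Col14a1 (-0.33), Col18a1 (-0.2) and Col8a1 (-0.17) did not pass.

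Some enzymes that mature the collagen fibre were lower too. Of 18 genes of collagen maturation, 4 fell and none rose, against 3.09% of all probes that fell, with a list median of -0.13. Loxl2, Loxl1 and Lox, 3 of the 4, are lysyl oxidases, which join collagen and elastin molecules outside the cell. Loxl2 went from 8.75 to 9.0 (median 8.85) to 7.49 to 8.06 (median 7.87) (log2 fold change -1.06 ± 0.18 SE, adjusted p = 0.000132). Lox stood at 9.63 to 10.36 (median 9.96) and 8.75 to 9.46 (median 9.09) (log2 fold change -0.91 ± 0.16 SE, adjusted p = 0.00025). Loxl1, which acts mainly on elastin, fell by a similar amount (log2 fold change -0.92 ± 0.14 SE, adjusted p = 1.99e-05). None of the 3 overlapped between ages, and a further lysyl oxidase, Loxl3, had -0.21 and did not pass. The prolyl and lysyl hydroxylases lay between -0.16 for P4ha1 and 0.061 for P4ha2, and the collagen chaperone Serpinh1 had 0.36 (adjusted p = 0.0787). Pcolce, an enhancer of procollagen cleavage, barely passed (adjusted p = 0.0498) and did not pass when arrays were scaled to a common median, or in 4 other alternatives.

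Eln and Fbn1, genes of the elastic fibre, also fell. Eln, which encodes elastin, had 8.91 to 10.28 (median 10.08) at 9 weeks and 7.45 to 8.17 (median 7.73) at 24 weeks. Young rat 2, at 8.91, was the lowest of its group and still above every adult rat. The adult level was 0.228 times the young level (log2 fold change -2.13 ± 0.23 SE, adjusted p = 3.43e-08). Fbn1, the fibrillin of the microfibrils that scaffold elastin, fell to 0.485 times (log2 fold change -1.05 ± 0.15 SE, adjusted p = 9.54e-06). Among the 27 other matrix genes 9 fell and 3 rose, against 3.09% of all probes that fell and 3.48% that rose. Fmod, a small proteoglycan on collagen fibrils, spanned 6.68 to 8.85 (median 8.13) and then 5.95 to 7.37 (median 6.58), with overlap between the ages (log2 fold change -1.24 ± 0.33 SE, adjusted p = 0.0157). Mmp14, a membrane-bound collagenase, fell as well, to 0.571 times (log2 fold change -0.81 ± 0.11 SE, adjusted p = 1.71e-06). The matrix proteins Sparc (-0.72), Mfap5 (-0.66) and Vcan (-0.42) fell with them. Bgn (-0.015), Dcn (-0.077) and Fn1 (-0.21), abundant members of the same list, did not pass. Neither did Fbln5 (-0.29), Mfap4 (-0.18) and Ltbp2 (-0.13), further proteins of the elastic fibre. Timp1, an inhibitor of matrix proteases, rose by 0.42 and Efemp1 by 0.37. Spp1, described below, also belongs to this list and had its largest rise, at 3.19.

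Cilp and Sfrp2, secreted proteins outside the lists and chosen after their values were seen, declined too. Cilp, a matrix protein that binds transforming growth factor beta, had 8.17 to 8.86 (median 8.59) at 9 weeks and 6.99 to 7.84 (median 7.42) at 24 weeks (log2 fold change -1.12 ± 0.16 SE, adjusted p = 1.18e-05). Sfrp2, a secreted modulator of Wnt signalling, fell to 0.457 times with wide overlap (log2 fold change -1.13 ± 0.32 SE, adjusted p = 0.0227). In the adult group Sfrp2 spanned 5.97 to 8.45 (median 6.84), and its highest rat, rat 1, was within the young range of 7.65 to 8.82 (median 7.97).

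Fibroblasts make most of this matrix. Of 14 fibroblast markers 7 fell, against 3.09% of all probes that fell, and 3 of these 7 are the collagens Col1a1, Col1a2 and Col3a1. Beyond these the transcription factor Tcf21, which marks the lineage, went from 11.15 to 11.44 (median 11.27) to 10.37 to 11.02 (median 10.8) (log2 fold change -0.52 ± 0.0934 SE, adjusted p = 0.000278). Pdgfra (-0.45), Lum (-0.49) and Dpt (-0.33) also fell. Dcn (-0.077), Gsn (-0.0076), Fbln1 (-0.06) and Ddr2 (0.24) did not pass. In whole-heart RNA, fewer cells of a type and less RNA per cell cannot be told apart.

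**Figure D2:**
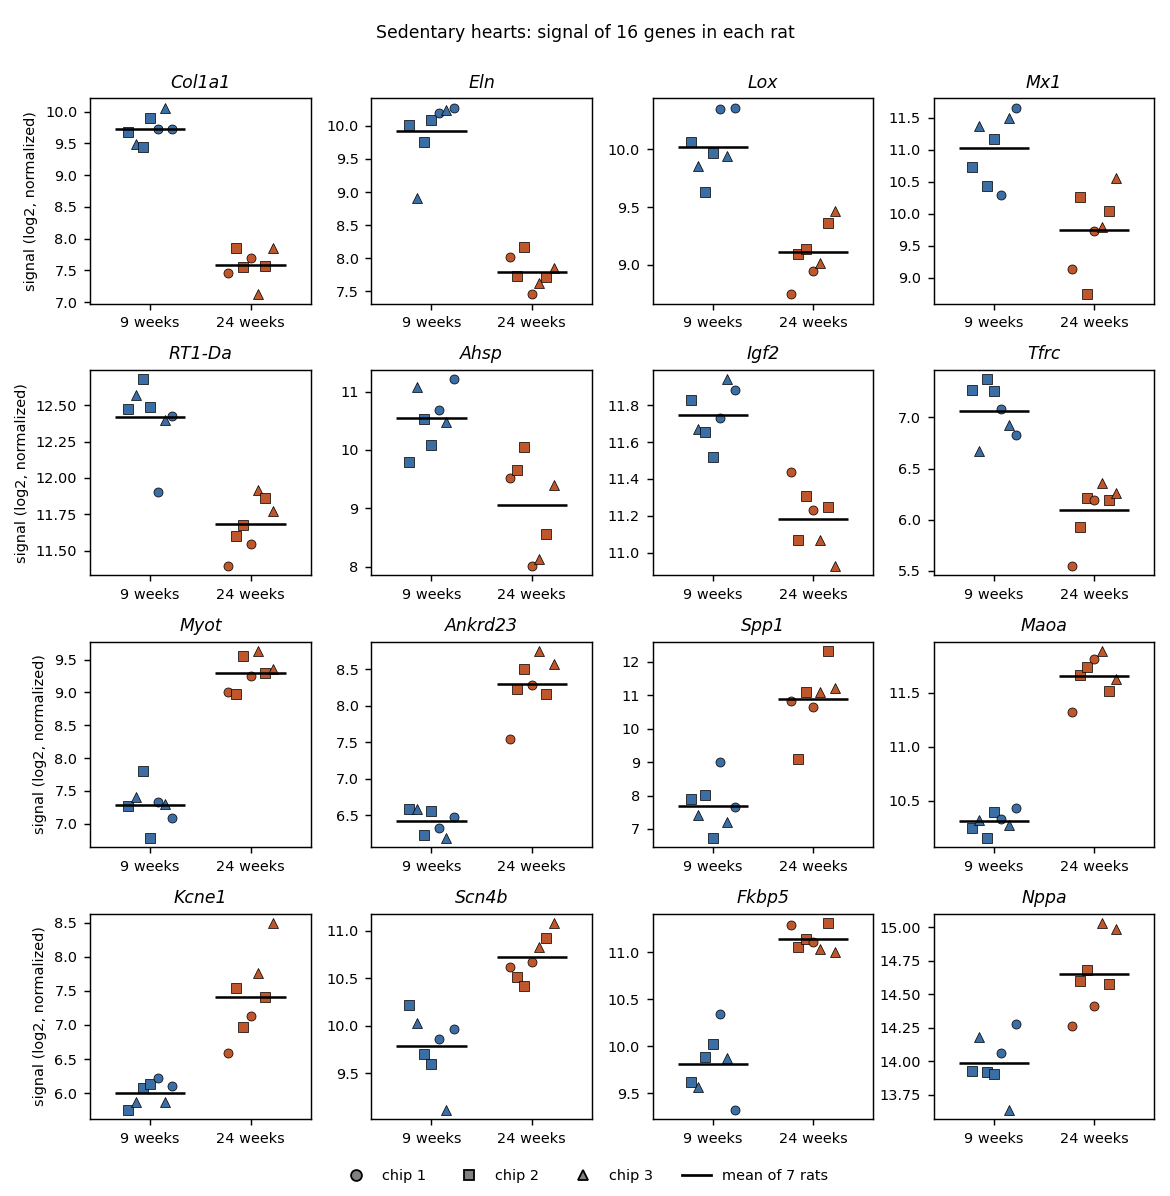
Normalized log2 signal (y axis, a separate scale in each panel) of 16 genes in the 7 sedentary rats of 9 weeks and the 7 of 24 weeks, 1 symbol per rat, with the symbol shape giving the chip and the line the mean. Col1a1, Eln, Lox, Igf2 and Tfrc separate completely with the adults below, and Myot, Ankrd23, Spp1, Maoa, Kcne1, Scn4b and Fkbp5 separate completely with the adults above, while Mx1, RT1-Da, Ahsp and Nppa overlap.

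Igf2 and some of its binding proteins were lower at 24 weeks. Their list, the growth factor axis, also holds other growth genes such as Ndn, Socs2, Gpc3 and Cdkn1c. Of its 15 measured members 4 fell and none rose, against 3.09% of all probes that fell, and the list median was -0.095. Igf2, an imprinted growth factor strongest in fetal tissue, had 11.52 to 11.94 (median 11.73) at 9 weeks and 10.93 to 11.44 (median 11.23) at 24 weeks, without overlap (log2 fold change -0.56 ± 0.0933 SE, adjusted p = 8.76e-05). Ndn, encoding the imprinted growth suppressor necdin, fell to 0.573 times (log2 fold change -0.8 ± 0.12 SE, adjusted p = 1.11e-05). The binding proteins Igfbp3 (log2 fold change -0.35 ± 0.1 SE, adjusted p = 0.0332) and Igfbp7 (log2 fold change -0.4 ± 0.0868 SE, adjusted p = 0.00269) fell by less. The receptors Igf1r (-0.049), Igf2r (-0.048) and Insr (0.098) did not pass. Igf2 and Igfbp3 no longer passed when arrays were scaled to a common median.

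Division genes themselves gave little change, but most were dim. Only 9 of the 25 cell cycle genes measured were detected on all 14 arrays. The list mean was 6.83 to 7.15 (median 6.97) at 9 weeks. Dim probes cannot show that division genes did not move. Of the 25 genes 1 fell and none rose, against 3.09% of all probes that fell and 3.48% that rose, with a median of 0.021. The one that fell was Pcna, the sliding clamp of DNA replication (log2 fold change -0.23 ± 0.0684 SE, adjusted p = 0.0366), and its call was lost under common-median scaling and in the fit of the 14 sedentary arrays alone. Tfrc, the transferrin receptor through which cells take up iron and which was chosen after its values were seen, fell to 0.514 times. Its signal was 6.68 to 7.37 (median 7.08) in young and 5.55 to 6.36 (median 6.19) in adult rats, where 6 of 7 arrays detected it (log2 fold change -0.96 ± 0.12 SE, adjusted p = 8.34e-07).

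Of single genes, Alox15 had the steepest fall. It encodes a lipoxygenase that oxygenates polyunsaturated fatty acids, and its signal was 9.4 to 11.13 (median 10.96) at 9 weeks against 6.46 to 9.25 (median 7.63) at 24 weeks. All young rats exceeded all adult rats, but adult rats 1, 2 and 3 (9.25, 8.63 and 9.04) lay far above the other 4. The adult mean was 0.148 times the young mean (log2 fold change -2.76 ± 0.51 SE, adjusted p = 0.000421). Scd, a desaturase that makes monounsaturated fatty acids, had 6.19 to 10.12 (median 8.24) in young rats, of which rats 3 and 6 (6.3 and 6.19) were at the adult level of 5.75 to 6.89 (median 6.2). Its change carried the widest error of the probes called (log2 fold change -2.13 ± 0.56 SE, adjusted p = 0.0139). Krt24, a keratin, went from 6.64 to 7.65 (median 7.15) to 5.77 to 6.24 (median 5.9) and was detected in 4 of 7 adult hearts (log2 fold change -1.16 ± 0.13 SE, adjusted p = 1.37e-07). Nrep, a small protein linked to wound myofibroblasts, fell without overlap (log2 fold change -1.16 ± 0.19 SE, adjusted p = 6.78e-05).

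Another block of lower transcripts belonged to interferon response and antigen presentation. Interferons induce antiviral genes and the genes that load peptides on MHC class I molecules through transcription factors of the STAT and IRF families. Of 37 measured members, 15 fell and none rose, again against 3.09% of all probes that fell, with a median of -0.54. Below 0 lay 34 of the 37, where 51.2% of all probes lay above 0. The mean of the list was 9.35 to 9.97 (median 9.83) at 9 weeks and 8.91 to 9.43 (median 9.17) at 24 weeks, and the ages overlapped by a narrow margin. The list median was -0.52, -0.44 and -0.67 on chips 1, 2 and 3.

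Those 15 genes were searched for the interferon-stimulated response element, the DNA letters that STAT and IRF factors bind, in the RefSeq promoters of rat build GRCr8. Promoters were found for 11 of them. The letters searched were GAAANNGAAA on both strands, in the 250 bases before the annotated start. Of the 11, 5 held a match, and of 21 members that did not pass and have a promoter, 14 did, while 1140 of all 33469 promoters (3.41%) held one. The 5 are shown here because they pair a fall with age with the letters of the element, in capitals and on either strand, and each ends at the base before the start.
Ifi44, chr2:243303841-243304090, minus strand: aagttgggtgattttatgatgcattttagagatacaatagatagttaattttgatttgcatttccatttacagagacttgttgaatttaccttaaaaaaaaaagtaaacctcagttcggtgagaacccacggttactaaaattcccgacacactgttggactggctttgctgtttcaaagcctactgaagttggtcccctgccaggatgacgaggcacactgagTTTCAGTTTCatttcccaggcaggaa
Oasl2, chr12:47383186-47383435, minus strand: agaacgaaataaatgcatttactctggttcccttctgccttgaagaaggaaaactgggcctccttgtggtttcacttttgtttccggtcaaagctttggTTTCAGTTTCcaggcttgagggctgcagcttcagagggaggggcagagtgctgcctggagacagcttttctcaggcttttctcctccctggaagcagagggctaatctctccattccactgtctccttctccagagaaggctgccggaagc
Gbp2, chr2:234005477-234005726, plus strand: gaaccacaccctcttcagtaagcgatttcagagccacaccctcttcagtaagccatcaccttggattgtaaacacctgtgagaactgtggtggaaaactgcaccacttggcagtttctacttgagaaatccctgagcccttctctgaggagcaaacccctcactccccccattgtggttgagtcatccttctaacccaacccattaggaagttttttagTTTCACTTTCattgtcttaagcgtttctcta
RT1-S3, chr20:2675278-2675527, plus strand: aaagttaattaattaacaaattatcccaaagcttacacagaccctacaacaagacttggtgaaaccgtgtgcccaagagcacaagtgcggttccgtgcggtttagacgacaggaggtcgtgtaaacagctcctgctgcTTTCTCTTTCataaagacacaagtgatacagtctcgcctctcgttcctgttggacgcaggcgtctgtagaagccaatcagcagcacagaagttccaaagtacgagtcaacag
Tap1, chr20:4668544-4668793, minus strand: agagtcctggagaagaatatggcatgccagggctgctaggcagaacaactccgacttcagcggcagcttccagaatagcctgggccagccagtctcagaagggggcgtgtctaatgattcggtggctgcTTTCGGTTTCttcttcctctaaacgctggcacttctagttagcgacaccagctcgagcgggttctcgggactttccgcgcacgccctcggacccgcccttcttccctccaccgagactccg
In Ifi44 the match began 26 bases before the start, in Gbp2 31, in RT1-S3 112, in Tap1 121 and in Oasl2 151. A match describes the letters of these windows and was not tested as a binding site.

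Mx1, an antiviral GTPase whose window held no match, had the deepest fall of the list. Its signal was 10.29 to 11.65 (median 11.16) in young and 8.74 to 10.56 (median 9.79) in adult hearts. Adult rat 7 reached the young range, and the error was large (log2 fold change -1.27 ± 0.36 SE, adjusted p = 0.0254). The call was lost without young rat 6 or 7 or adult rat 1 or 3. Mx2 gave nearly the same values (log2 fold change -1.11 ± 0.3 SE, adjusted p = 0.0178), and the 2 are close relatives whose probes may share transcripts. Oasl2, a relative of the oligoadenylate synthetases, had 8.39 to 9.54 (median 9.19) and 7.23 to 8.73 (median 7.88) (log2 fold change -1.01 ± 0.26 SE, adjusted p = 0.0112). Ifi44 fell to 0.566 times (log2 fold change -0.82 ± 0.18 SE, adjusted p = 0.00274). Gbp2 (-0.89), Ifit2 (-0.78) and Rtp4 (-0.79), all induced by interferon, fell as well. So did the signalling factors themselves, Stat2 (-0.68), Irf9 (-0.59) and Irf1 (-0.5).

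Some genes of peptide loading and class I fell as well. Tap1, a subunit of the peptide transporter, had a log2 fold change of -0.69. RT1-A1, a classical class I gene of the rat, had 12.7 to 13.45 (median 13.03) at 9 weeks and 12.49 to 12.66 (median 12.54) at 24 weeks, without overlap (log2 fold change -0.49 ± 0.0995 SE, adjusted p = 0.00119). RT1-S3 (log2 fold change -0.8 ± 0.17 SE, adjusted p = 0.00281) and RT1-T24-4 (log2 fold change -0.54 ± 0.1 SE, adjusted p = 0.00067) fell too. RT1 genes are near copies of each other, so their probes cannot be taken as separate genes. B2m, the light chain shared by all class I molecules, had -0.033, and the immunoproteasome subunits Psmb9 (-0.47) and Psmb8 (-0.36) did not pass. Nor did Tap2 (-0.22), Tapbp (-0.3), RT1-A3 (-0.33), RT1-CE5 (-0.36) and RT1-N3 (-0.47).

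One gene of the oligoadenylate synthetase family went the other way. Oas1k, outside the list and one of the 12 largest rises, had 6.68 to 8.5 (median 7.75) in young and 8.23 to 9.53 (median 8.99) in adult hearts (log2 fold change 1.39 ± 0.25 SE, adjusted p = 0.000352). Its relative Oas1a had 0.47 (adjusted p = 0.0961) and Oas1i -0.77 (adjusted p = 0.0539). Copies of this family are similar, and which of them each probe reads was not tested.

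Some genes of the MHC class II list were lower too. Dendritic cells, B cells and some macrophages use class II molecules to present antigen. Of 7 measured members of that list, 3 fell and none rose, against 3.09% of all probes that fell, with a median of -0.34. RT1-Da had 11.9 to 12.68 (median 12.47) at 9 weeks and 11.39 to 11.91 (median 11.68) at 24 weeks (log2 fold change -0.74 ± 0.11 SE, adjusted p = 1.72e-05). The ages overlapped only through young rat 5, which at 11.9 lay below adult rat 5. RT1-Ba separated fully (log2 fold change -0.7 ± 0.1 SE, adjusted p = 8.94e-06), and RT1-Db1 fell most (log2 fold change -0.94 ± 0.16 SE, adjusted p = 0.000102). The invariant chain Cd74 had -0.34 (adjusted p = 0.114) and RT1-DMa -0.16. RT1-DMb (0.068) and Ccr7 (0.23) lay above 0, and none of these passed. Cxcl9, a chemokine induced by interferon gamma that was chosen after its values were seen, was 0.499 times as high in adults (log2 fold change -1.0 ± 0.16 SE, adjusted p = 8.46e-05), and its ranges of 9.61 to 10.74 (median 10.17) and 8.84 to 9.47 (median 9.15) did not meet.

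Few leukocyte markers passed, where 3.48% of all probes rose and 3.09% fell. Of 18 macrophage markers 2 fell and 1 rose, with a median of 0.15 that stood at 0.046 under common-median scaling. Fcgr3a (log2 fold change -0.63 ± 0.16 SE, adjusted p = 0.0123) and Pf4 (log2 fold change -0.44 ± 0.13 SE, adjusted p = 0.0269) fell, and Lgals3, galectin-3, rose from 11.03 to 11.76 (median 11.34) to 11.56 to 12.47 (median 11.98) (log2 fold change 0.68 ± 0.13 SE, adjusted p = 0.000749). The Pf4 call was lost under common-median scaling. The complement genes C1qa (0.3), C1qb (0.18) and C1qc (0.18) and the scavenger receptor Cd163 (0.31) did not pass. No T or NK cell marker of 12 passed, with a median of -0.059. Only 6 of the 12 were detected on all 14 arrays, and the list mean was 6.63 to 6.86 (median 6.73) at 9 weeks. Such dim probes cannot show that these markers did not move. Cd8a came nearest, at 0.41 (adjusted p = 0.0519). Of 12 B cell and plasma cell markers only 2 were measured and none passed. Mast cell tryptase Tpsab1 rose without overlap, from 5.59 to 5.98 (median 5.75), where 2 of 7 arrays detected it, to 6.04 to 6.62 (median 6.38), where all 7 did (log2 fold change 0.59 ± 0.13 SE, adjusted p = 0.00462). The mast cell genes Cpa3 (-0.048), Cma1 (-0.28) and Kit (-0.074) did not pass.

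**Figure D3:**
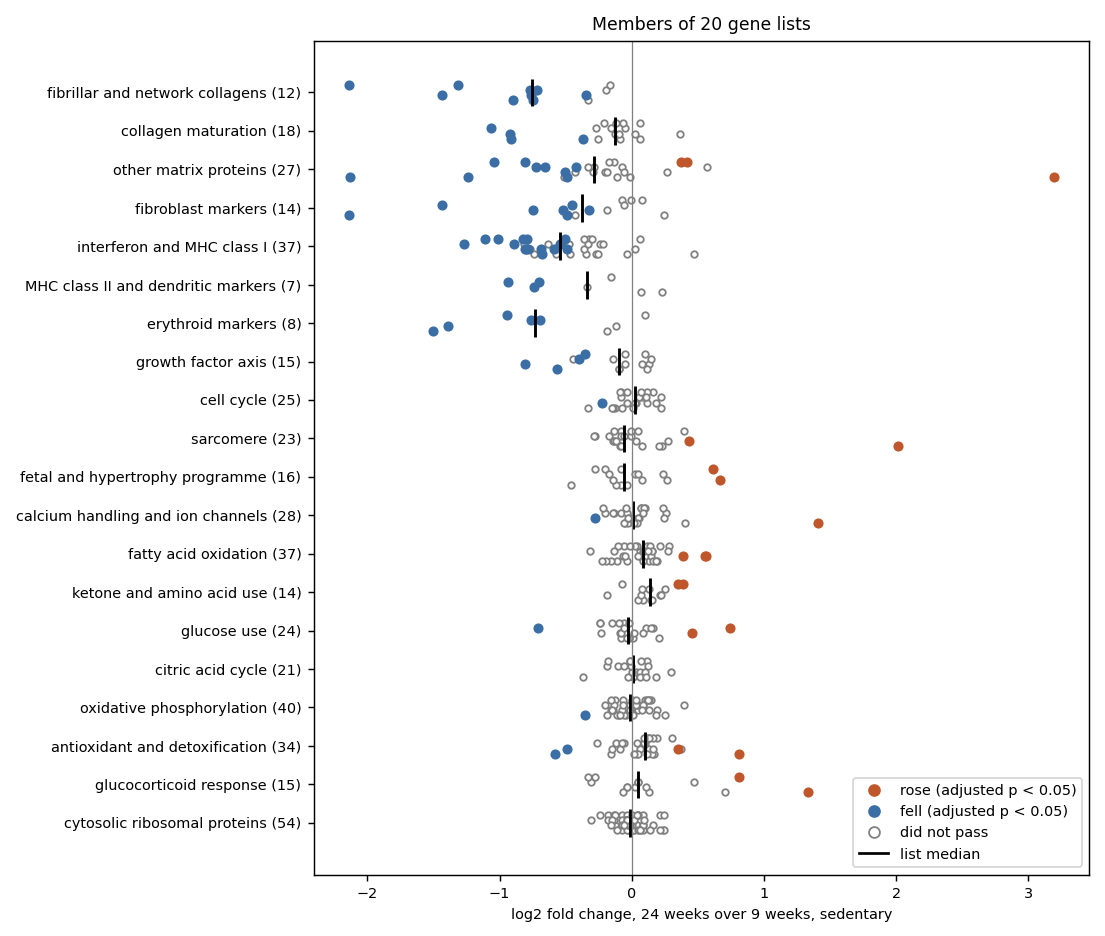
Log2 fold change (24 weeks over 9 weeks, x axis) of each measured member of 20 gene lists, the number of members in brackets; filled points passed an adjusted p of 0.05 (blue fell, orange rose), open points did not, and the bar is the list median. The medians of the collagens, the interferon genes and the erythroid genes lie between -0.76 and -0.54, while those of the citric acid cycle, oxidative phosphorylation and ribosomal proteins lie near 0.

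Erythroid transcripts, which young red cells carry, were lower as well. Of 8 measured members 5 fell and none rose, against 3.09% of all probes that fell, with a median of -0.73. Ahsp, the chaperone of free alpha globin, had 9.8 to 11.21 (median 10.54) at 9 weeks and 8.01 to 10.04 (median 9.41) at 24 weeks, with overlap (log2 fold change -1.5 ± 0.35 SE, adjusted p = 0.0059). Alas2, the first enzyme of haem synthesis in red cell precursors, fell to 0.381 times (log2 fold change -1.39 ± 0.35 SE, adjusted p = 0.0108). Slc4a1, the anion exchanger of the red cell membrane, fell to 0.521 times (log2 fold change -0.94 ± 0.22 SE, adjusted p = 0.00627). Bpgm, which makes the bisphosphoglycerate that loosens oxygen from haemoglobin, fell to 0.617 times (log2 fold change -0.7 ± 0.16 SE, adjusted p = 0.00627).

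The chips did not agree in size. The median of the list was -0.98, -0.13 and -1.21 on chips 1, 2 and 3, and Ahsp alone had -2.18, -0.71 and -2.01. Adult rats 1, 2 and 3 had means over the erythroid markers of 11.1, 11.12 and 11.31, which reached the young range of 11.04 to 11.99 (median 11.49), and these 3 rats were also the highest adults for Alox15. The globin probes differed among themselves. Hba-a3 had 12.15 to 13.39 (median 12.92) and 10.83 to 12.56 (median 11.78) (log2 fold change -1.11 ± 0.27 SE, adjusted p = 0.00662), and Hbb-b1 fell by less (log2 fold change -0.76 ± 0.22 SE, adjusted p = 0.0286). The brightest globin probes, Hba-a1 (-0.19, adjusted p = 0.333) and Hbb (-0.12, adjusted p = 0.457), did not pass. Globin genes are near copies and their brightest probes stood near the top of the scale, at 14.57 to 15.01 (median 14.75) for Hba-a1 in young rats. Hbb-b1 and Bpgm lost their calls under common-median scaling.

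Further genes known from red cell maturation, chosen after their values were seen, had the same chip pattern. Lgals5, a galectin of rat reticulocytes, had -1.57, -0.36 and -1.69 on the 3 chips (log2 fold change -1.08 ± 0.3 SE, adjusted p = 0.0205). Its call was lost under common-median scaling. Mkrn1, a ubiquitin ligase, had -1.12, -0.39 and -1.75 (log2 fold change -0.99 ± 0.23 SE, adjusted p = 0.00452), and Tent5c, a poly(A) polymerase, -1.09, -0.27 and -1.9 (log2 fold change -0.97 ± 0.24 SE, adjusted p = 0.00822). The part of blood left in the tissue in these differences was not tested.

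GATA factors switch on red cell genes, and the letters AGATAA or TGATAA were searched on both strands in the same 250-base windows. Of the 5 erythroid genes that fell, 3 had a promoter in the table and 1 of those, Alas2, held a match, as did 2 of the 3 that did not pass, against 5647 of 33469 promoters (16.9%). The Alas2 window is shown because the gene had a deep fall, with the match in capitals, 136 bases before the start.
Alas2, chrX:22895200-22895449, plus strand: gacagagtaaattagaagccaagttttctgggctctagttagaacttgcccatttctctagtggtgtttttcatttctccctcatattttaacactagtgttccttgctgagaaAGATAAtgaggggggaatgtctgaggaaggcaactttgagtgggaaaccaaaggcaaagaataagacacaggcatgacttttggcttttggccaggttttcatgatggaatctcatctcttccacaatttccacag

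**Figure D4:**
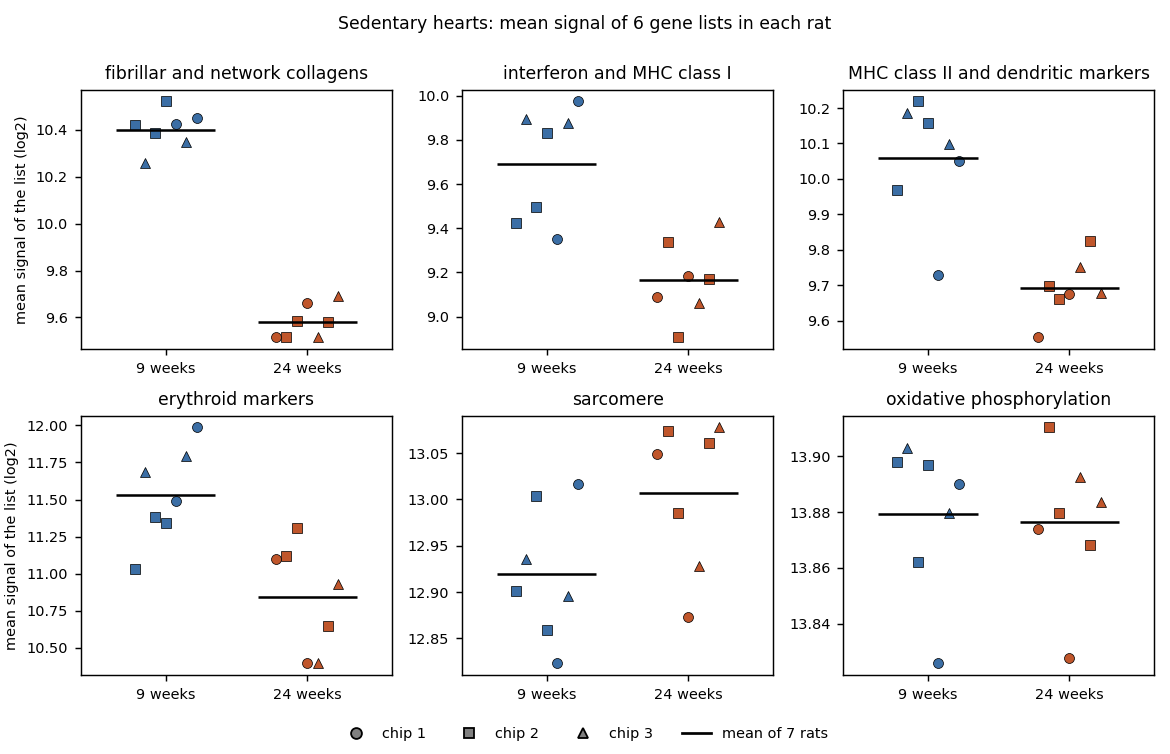
Mean log2 signal (y axis, a separate scale in each panel) of 6 gene lists in each of the 7 sedentary rats of 9 weeks and the 7 of 24 weeks, with symbol shape for the chip and a line for the group mean. Collagens separate completely, interferon and MHC class I genes almost completely, and erythroid genes overlap through 3 adult rats, while sarcomere and oxidative phosphorylation genes overlap over most of their range.

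Myot, Art1 and Ankrd23 had the largest rises of the named genes after Spp1, the osteopontin gene described after them. The Z-disc anchors the thin filaments and titin of neighbouring sarcomeres. Myot, encoding the Z-disc protein myotilin, had 6.79 to 7.8 (median 7.31) at 9 weeks and 8.98 to 9.63 (median 9.3) at 24 weeks. A gap of more than 1 log2 unit separated the ages, and adults had 4.04 times the young signal (log2 fold change 2.02 ± 0.15 SE, adjusted p = 1.54e-11), with 1.92, 2.0 and 2.14 on the 3 chips. Ankrd23, an ankyrin repeat protein that binds titin and responds to stretch, went from 6.19 to 6.59 (median 6.47) to 7.55 to 8.75 (median 8.28), which is 3.66 times (log2 fold change 1.87 ± 0.17 SE, adjusted p = 6.75e-10). Its relative Ankrd1 had -0.083 and did not pass. Art1, an ADP-ribosyltransferase of the muscle cell surface, rose to 3.88 times (log2 fold change 1.96 ± 0.19 SE, adjusted p = 8.28e-09), with 6.08 to 7.28 (median 6.82) in young and 8.15 to 9.33 (median 8.82) in adult hearts. Akip1, a partner of protein kinase A chosen after its values were seen, rose to 1.98 times (log2 fold change 0.98 ± 0.13 SE, adjusted p = 1.71e-06).

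The rest of the contractile apparatus moved little, where 3.48% of all probes rose and 3.09% fell. Of 23 sarcomere genes 2 rose, Myot and Actc1, and none fell, with a median of -0.059 that stood at -0.22 under common-median scaling. Actc1, cardiac alpha actin, rose by 0.43 (1.35 times, adjusted p = 0.0178), a call that was lost under that scaling. The myosin heavy chains Myh6 (-0.15, standard error 0.099, adjusted p = 0.451) and Myh7 (-0.18, standard error 0.11, adjusted p = 0.428) did not pass, and their probes too lay near the top of the scale. Mybpc2, the fast skeletal form of myosin-binding protein C, rose from 5.99 to 6.5 (median 6.21) to 6.51 to 7.68 (median 7.07) without overlap (log2 fold change 0.94 ± 0.16 SE, adjusted p = 0.000189). It was the only skeletal muscle marker of 7 measured that passed, and Tnnt1 (0.22), Tnnt3 (0.035) and Tnni2 (-0.024) did not.

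Spp1 had the steepest rise of all named genes. It encodes osteopontin, a secreted matrix protein made by macrophages and by stressed muscle cells. Its signal was 6.74 to 9.0 (median 7.64) at 9 weeks and 9.08 to 12.31 (median 11.09) at 24 weeks. The lowest adult, rat 2 at 9.08, stood just above the highest young rat, rat 5 at 9.0, and the other 6 adults were at 10.65 or more. The mean rise was 9.15-fold (log2 fold change 3.19 ± 0.45 SE, adjusted p = 8.47e-06), and 2.42, 3.28 and 3.84 within the chips. Lgals3, which rose 1.6-fold, was the sole riser among the 18 macrophage markers, and that list had the median given above. The part of macrophages in the Spp1 change was not tested.

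Kcne1, Scn3b and Scn4b, accessory subunits of cardiac ion channels, rose. Kcne1, the partner of the potassium channel Kcnq1 in the slow delayed rectifier current, had 5.76 to 6.22 (median 6.08) at 9 weeks, detected on 6 of 7 arrays, and 6.59 to 8.5 (median 7.42) at 24 weeks. No rats overlapped (log2 fold change 1.41 ± 0.24 SE, adjusted p = 0.000102), but the chips gave 0.7, 1.32 and 2.26. The accessory subunits Kcnip2 (-0.2), Cacnb2 (0.056) and Cacna2d1 (0.4) did not pass. Kcnq1 itself had 0.24 (adjusted p = 0.192). Scn3b and Scn4b, beta subunits of the sodium channel, rose to 2.27 times (log2 fold change 1.18 ± 0.18 SE, adjusted p = 2.18e-05) and 1.91 times (log2 fold change 0.94 ± 0.13 SE, adjusted p = 7.09e-06). Scn4b, chosen after its values were seen, spanned 9.12 to 10.22 (median 9.87) and 10.41 to 11.08 (median 10.67).

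Of 28 measured genes of calcium handling and ion channels 1 rose, Kcne1, and 1 fell, Atp1b1, the beta subunit of the sodium pump (log2 fold change -0.28 ± 0.0783 SE, adjusted p = 0.0253), with a median of 0.0084. Over all probes 3.48% rose and 3.09% fell. Atp2a2 (-0.078), Ryr2 (-0.056, standard error 0.26), Casq2 (-0.025) and Slc8a1 (-0.14), the core of the calcium cycle, did not pass. The Slc8a1 probe was dim, detected on 5 of 7 young and 1 of 7 adult arrays, and cannot show that its gene did not move. The Atp1b1 call was lost under common-median scaling.

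Of 16 genes of the fetal and hypertrophy programme, 2 rose and none fell, against 3.48% of all probes that rose and 3.09% that fell. Nppa, the atrial natriuretic peptide that hearts release under load, had 13.64 to 14.28 (median 13.93) at 9 weeks and 14.26 to 15.03 (median 14.6) at 24 weeks. The ages touched only at their edges, and adults had 1.59 times the young signal (log2 fold change 0.67 ± 0.12 SE, adjusted p = 0.000203). The Nppa probe was measured near the top of the scale, and whether its signal understates the change was not tested. The difference was 0.17, 0.7 and 1.1 on chips 1, 2 and 3, and it did not pass under common-median scaling. Nppb (0.048), Acta1 (0.076) and Myh7 did not pass. Nppa is strongest in the atria. The atrial light chain Myl7 spanned 9.17 to 13.35 (median 10.98) in young and 9.04 to 12.34 (median 10.59) in adult hearts (-0.28, adjusted p = 0.854), and of 8 atrial markers Nppa alone passed. The part of the atria in the Nppa change was not tested. Rcan1, which inhibits calcineurin and is one of its targets, rose from 11.69 to 12.1 (median 11.88) to 11.94 to 13.1 (median 12.55) (log2 fold change 0.62 ± 0.13 SE, adjusted p = 0.00273), with 0.26, 0.63 and 0.96 on the chips.

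Several enzymes outside the lists rose. Maoa, the mitochondrial monoamine oxidase that degrades noradrenaline and serotonin, had 10.15 to 10.43 (median 10.32) in young and 11.32 to 11.88 (median 11.66) in adult hearts, far apart (2.54 times, log2 fold change 1.34 ± 0.14 SE, adjusted p = 2.44e-08). Ces1c, a carboxylesterase, rose to 2.31 times (log2 fold change 1.21 ± 0.13 SE, adjusted p = 3.42e-08), and Ephx4, of the epoxide hydrolase family, to 2.08 times (log2 fold change 1.06 ± 0.16 SE, adjusted p = 1.89e-05). Fmo1, Cyp2e1 and Hpd, chosen after their values were seen, rose similarly. Fmo1, a flavin monooxygenase, reached 1.81 times (log2 fold change 0.86 ± 0.12 SE, adjusted p = 1.04e-05). Cyp2e1, a cytochrome P450, went from 6.72 to 7.62 (median 7.01) to 7.44 to 8.67 (median 8.0) with slight overlap (log2 fold change 1.01 ± 0.19 SE, adjusted p = 0.000462). Hpd, of tyrosine breakdown, rose from 6.25 to 6.95 (median 6.33) to 7.24 to 7.77 (median 7.51) (log2 fold change 1.03 ± 0.11 SE, adjusted p = 3.42e-08).

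Of the 34 measured antioxidant and detoxification genes 2 rose and 2 fell, with a median of 0.097. The shares over all probes were 3.48% and 3.09%. The metal-binding protein Mt1 rose without overlap (log2 fold change 0.81 ± 0.16 SE, adjusted p = 0.000825) and the quinone reductase Nqo1 rose by less (log2 fold change 0.35 ± 0.0986 SE, adjusted p = 0.0258). Gpx7, a peroxidase of the endoplasmic reticulum, fell (log2 fold change -0.58 ± 0.0997 SE, adjusted p = 0.00014), as did the extracellular superoxide dismutase Sod3 (log2 fold change -0.49 ± 0.12 SE, adjusted p = 0.0103). Sod1 (0.13), Sod2 (0.15), Cat (0.039) and Gpx1 (0.063) did not pass. The calls of Nqo1 and Sod3 did not hold under common-median scaling.

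Fkbp5, a co-chaperone of steroid receptors that glucocorticoids induce strongly, rose with narrow adult spread. It had 9.33 to 10.35 (median 9.88) at 9 weeks and 11.01 to 11.31 (median 11.11) at 24 weeks, 2.51 times (log2 fold change 1.33 ± 0.15 SE, adjusted p = 1.21e-07), with 1.36, 1.32 and 1.3 on the chips. Of 15 glucocorticoid-responsive genes only Fkbp5 and Mt1 passed, both higher, against 3.48% of all probes that rose. Sult1a1 (0.71, adjusted p = 0.0549) and Lcn2 (0.47, adjusted p = 0.102) came nearest without passing. Tsc22d3 (0.11), Per1 (0.044), Zbtb16 (0.047) and Klf9 (-0.037), which the same receptor induces, did not pass, and Sgk1 (-0.33) and Dusp1 (-0.31) lay below 0. Zbtb16 was dim, detected on 3 of 7 arrays at each age. Of the 15 genes, 9 lay above 0 and 6 below. Cpxm2, a secreted carboxypeptidase relative, also rose without overlap (log2 fold change 1.09 ± 0.11 SE, adjusted p = 1.1e-08).

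Core energy metabolism was close to level, with few members past the test, where 3.48% of all probes rose and 3.09% fell. No citric acid cycle gene of 21 passed, with a median of 0.011, and of 40 genes of oxidative phosphorylation 1 fell, Cox8a (log2 fold change -0.35 ± 0.0732 SE, adjusted p = 0.00161), a call lost under common-median scaling. Under that scaling the median of oxidative phosphorylation was -0.15 in place of -0.014. Citrate synthase, Cs, came nearest in its cycle at -0.37 (adjusted p = 0.0554).

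Of 37 genes of fatty acid oxidation, 3 rose and none fell, with a median of 0.083. The shares over all probes were 3.48% and 3.09%. Pnpla2, the lipase that starts the breakdown of stored triglyceride, rose to 1.31 times (log2 fold change 0.39 ± 0.0853 SE, adjusted p = 0.00309). Slc25a20, the carrier that brings acylcarnitines into mitochondria, rose to 1.47 times (log2 fold change 0.56 ± 0.17 SE, adjusted p = 0.0332), and Acot1, an acyl-CoA thioesterase, rose with a similar margin (log2 fold change 0.56 ± 0.17 SE, adjusted p = 0.0442). None of these 3 calls held under common-median scaling. Cpt1b (0.28), Acadm (0.061), Ppara (0.12) and the coactivator Ppargc1a (-0.22, adjusted p = 0.569) did not pass.

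Of 14 genes of ketone and amino acid use, 12 lay above 0, against 51.2% of all probes. Among them 2 rose, against 3.48% of all probes, both of branched-chain amino acid breakdown. Bckdha, a subunit of the branched-chain ketoacid dehydrogenase, had 10.93 to 11.26 (median 11.11) and 11.26 to 11.54 (median 11.51) (log2 fold change 0.35 ± 0.073 SE, adjusted p = 0.00171). Ivd, of leucine breakdown, rose from 12.66 to 13.02 (median 12.87) to 13.19 to 13.32 (median 13.21) (log2 fold change 0.39 ± 0.0688 SE, adjusted p = 0.000236). Both separated fully between ages here and did not pass under common-median scaling.

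Of 24 genes of glucose use 2 rose and 1 fell, with a median of -0.03. Over all probes 3.48% rose and 3.09% fell. Pfkp, the platelet form of phosphofructokinase, fell from 9.49 to 9.79 (median 9.58) to 8.77 to 8.98 (median 8.9) with little spread (log2 fold change -0.71 ± 0.0706 SE, adjusted p = 9.67e-09), and the muscle form Pfkm (-0.085) and liver form Pfkl (-0.083) did not pass. Pfkfb1, an isoform of the enzyme that sets fructose 2,6-bisphosphate, was detected in none of the 7 young hearts and in all 7 adult hearts. It was at least 1.4-fold higher at 24 weeks, taking the dimmest detected signal as its limit in young hearts. The adjusted p of 3.6e-05 belongs to the fitted log2 fold change of 0.745, which uses the undetected young values. Those 7 adult arrays alone meet the detection filter, so passing it adds no support. In early exercise rats the log2 fold change was 0.24 (adjusted p = 0.212). Aldoc, an aldolase isoform, rose as well (log2 fold change 0.46 ± 0.13 SE, adjusted p = 0.0286), a call that did not hold under common-median scaling.

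Some clock and stress genes differed, where 3.48% of all probes rose and 3.09% fell. Of 10 clock genes Per2 (log2 fold change 0.62 ± 0.16 SE, adjusted p = 0.0139) and Nfil3 (log2 fold change 0.42 ± 0.1 SE, adjusted p = 0.00986) rose and Bhlhe40 fell (log2 fold change -0.52 ± 0.14 SE, adjusted p = 0.0135), while Bmal1 (-0.094), Dbp (0.32) and Nr1d1 (-0.56) did not pass. All 3 calls were lost under common-median scaling, and the time of day at which each rat was killed is not given in the labels. Of 15 heat shock genes Hspb1 (log2 fold change 0.39 ± 0.0882 SE, adjusted p = 0.00421) and its partner Bag3 (log2 fold change 0.31 ± 0.0726 SE, adjusted p = 0.00572) rose, and neither call held under that scaling. None of 20 immediate early genes and none of 54 ribosomal protein genes passed, with medians of -0.0014 and -0.013. None of 9 senescence and p53 target genes passed.

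Markers of the remaining cell types gave few calls, where 3.48% of all probes rose and 3.09% fell. Of 14 endothelial markers 1 fell, Cldn5, a tight junction protein (log2 fold change -0.36 ± 0.0941 SE, adjusted p = 0.0126, not held under common-median scaling). But 13 of the 14 lay below 0, where 51.2% of all probes lay above 0. The list median was -0.27, with Cdh5 at -0.41 and Tie1 at -0.33, and no marker had separate ranges at the 2 ages. None of 7 smooth muscle and pericyte markers passed (median -0.085). Npy, the peptide that sympathetic nerve endings release with noradrenaline, had 9.56 to 10.71 (median 10.14) at 9 weeks and 8.22 to 9.82 (median 9.01) at 24 weeks, with slight overlap (log2 fold change -0.96 ± 0.24 SE, adjusted p = 0.0109). The other 8 Schwann and neuronal markers did not pass, and Dbh, the noradrenaline-synthesizing enzyme of the same nerves, had 0.18. Of 12 adipocyte markers Scd alone passed, and 7 lay above 0 and 5 below. Adipoq had 0.0043 (adjusted p = 0.992), but it was detected on 2 of 7 young and 0 of 7 adult arrays. Its value therefore cannot show that it did not move. Car3, detected on 7 of 7 arrays at each age, had -0.89 ± 0.45 SE (adjusted p = 0.266). Lung, thymocyte and liver markers were mostly not measured, and of those measured only Ttr, which is not confined to the liver, passed (log2 fold change 0.39 ± 0.12 SE, adjusted p = 0.0366, lost under common-median scaling).

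The same interval was also compared in rats trained as juveniles. Those of 9 weeks were killed just after training ended, and those of 24 weeks after months without it. Age and time since training therefore changed together in these rats and cannot be told apart. Early exercise rats of 9 and 24 weeks share no animal with the sedentary rats, but they were normalized together with them, sat on the same chips and shared the estimate of spread. In these 15 rats 880 probes changed (8.03% of those tested), 477 upward (4.35%) and 403 downward (3.68%). Of the 719 sedentary calls, 378 were also called in the same direction in early exercise rats, 52.6% of the sedentary and 43% of the early exercise calls, and 0 in the opposite direction. The sign was the same for 703 of the 719, or 97.8%, against 70.6% of all probes. The change was smaller in early exercise rats for 557 of the 719, which were chosen for passing in sedentary rats.

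Myot rose by 1.98 in early exercise rats and by 2.02 in sedentary rats, and Ankrd23 by 1.76 and 1.87. Col1a1 fell there too, with -1.89 against -2.14, and Eln with -1.55 against -2.13. Spp1 rose by 4.31 (standard error 0.44). Of the 12 collagens 8 fell in early exercise rats, with a median of -0.8. The interferon list stood at a median of -0.23, with 1 of 37 members that fell, and the erythroid list at -0.51, with 3 of 8.

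Whether the change with age differed between sedentary and early exercise rats was tested directly, and no probe passed in limma (smallest adjusted p = 0.999). At an unadjusted p below 0.05 there were 334 probes, 3.05% of those tested. A plain analysis of variance per probe also gave 0 after adjustment and 353 at an unadjusted p below 0.05. Among the interferon and MHC class I genes 4 of 37 were below that unadjusted limit, and among the MHC class II list 3 of 7. RT1-Db1 fell by -0.94 in sedentary and had -0.4 in early exercise rats (adjusted p there 0.0972, unadjusted p of the difference 0.0196). Igf2 had -0.56 and -0.86 (unadjusted p of the difference 0.028). Passing in sedentary and not in early exercise rats does not show that the 2 changes differ.

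**Figure D5:**
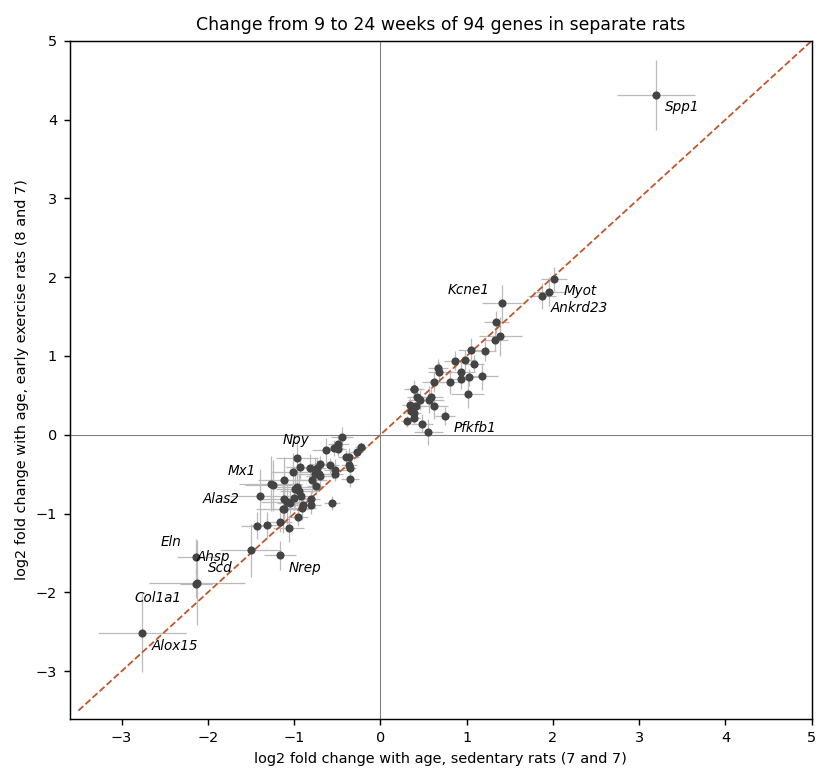
Log2 fold change from 9 to 24 weeks of the 94 named genes that passed in sedentary rats, in sedentary rats (x axis, 7 rats per age) and in early exercise rats (y axis, 8 rats of 24 and 7 of 9 weeks), with standard errors as bars and a dashed line of equal change. Spp1 lies above the line at 3.19 and 4.31, and the genes that fell, such as Mx1 at -1.27 and -0.62, mostly lie between the line and 0; Pfkfb1, not detected in young sedentary hearts, stands at its fitted value.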

How the data were processed

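RNA from whole hearts was hybridised to Illumina rat expression beadchips, 1 array per rat, on 3 chips of 12 arrays by the labels, where the study's methods give 6 per chip. The authors deposited a raw signal intensity per probe with a detection score that runs up with signal (read as 1 minus the detection p), and a table of normalized log2 values, made with limma 3.24.15 under R 3.2.2 according to the submitters' processing notes. The deposited log2 values differed by at most 0.0417 from values computed here with the normexp model (fitted on detection scores), quantile normalization and an added offset of 16, and were used as deposited. The study's methods instead describe variance stabilization with lumi and analysis of variance that called genes at unadjusted p up to 0.05 when the fold was under 0.75 or over 1.25. Gene symbols came from the platform annotation (13793 probes with 1 symbol, 8730 with none).

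Probes with a detection score of 0.95 or more on at least 7 arrays were kept. One model of the 5 groups was fitted to all 36 arrays with limma 3.58.1 in R 4.3.3, moderated by empirical Bayes, with p adjusted over the 10956 probes by Benjamini-Hochberg, and was tested on simulated data. Fold changes are 24 weeks over 9 weeks on normalized log2 signal, and levels are not compared between probes. The probes, comparison and gene lists were chosen with earlier results of these data known. Genes named with full statistics were the 12 each way with the largest change, up to 4 called members per list with the smallest p (2 in a list with no call), and 26 genes chosen after their values were seen (Hba-a3, Lgals5, Mkrn1, Tent5c, Tfrc, Cilp, Sfrp2, Scn4b, Cyp2e1, Hpd, Fmo1, Akip1, Oasl2, Mx2, Cxcl9, Hba-a1, Hbb, Hbb-b1, Myl7, Mt1, Igf2, Lox, Slc4a1, Myh6, Myh7 and Ppargc1a). Other list members are given by log2 fold change only, each gene by its brightest probe, and were picked from the fixed lists for their role. Promoters are RefSeq windows of build GRCr8. The brightness ratio was tested by exact permutation over all 3432 groupings of 7 and 7 rats.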

Additional observations from a re-analysis of the deposited data

Results flagged for a closer look

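In 11 of 252 tested groups, 1 rat stood apart from the other 6 by a larger share of the group's range than the limit of Dixon's test for 7 values. Chance flags about 1 in 20 groups. Among 9-week hearts, rat 2 had the lowest Eln (8.914, the others 9.757 to 10.27) and the highest Nqo1 (10.2, the others 9.759 to 9.939) and Cyp2e1 (7.62, the others 6.724 to 7.107). Young rat 5 had the lowest RT1-Da (11.9, the others 12.4 to 12.68) and the highest Kcnj8 (8.375, the others 8.04 to 8.139) and Hpd (6.948, the others 6.248 to 6.544). Young rat 1 had the highest Nr4a3 (6.491, the others 5.842 to 6.114). Among 24-week hearts, rat 4 had the highest Col3a1 (9.982, the others 9.191 to 9.44) and the lowest Bckdha (11.26, the others 11.43 to 11.54). Adult rat 7 had the highest Bag3 (13.84, the others 13.49 to 13.64) and adult rat 1 the highest Lck (5.932, the others 5.689 to 5.777).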

How the results depend on the processing

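With arrays scaled to a common median in place of quantile normalization, 263 probes passed (69 higher, 194 lower, so 26.2% of calls were higher against 53%), and in early exercise rats 1863 (71 higher, 1792 lower). All 719 main calls kept their sign there and 242 passed again, and of 94 named genes that passed 66 did. Sdhb (-0.048) and Ccng1 (-0.00809) changed sign there, neither having passed. List medians moved there for sarcomere (-0.22), fatty acid oxidation (0.039), oxidative phosphorylation (-0.15), antioxidant (0.034), ribosomal protein (-0.10) and cardiomyocyte genes (-0.21), and the skeletal muscle median moved to 0.15 with no background correction. With chip as a block all 719 calls passed again and 574 probes were higher. The cause of these shifts was not tested. Values from the raw intensities gave 715 calls, no background correction 776, no detection filter 591, detection on all 14 sedentary arrays 737, the 14 sedentary arrays alone 768, no moderation 717, array brightness as a covariate 680, the length score 896 and the thresholds of the study's methods 775. Leaving out 1 rat gave 530 to 746 calls (276 to 390 higher, 252 to 356 lower), 506 to 647 of them shared with the main calls. Among the lists, 12 to 20 interferon genes, 9 collagens and 4 or 5 erythroid genes then fell. Myl7, which did not pass, ran from -0.597 to 0.10 with 1 rat left out, above 0 without young rat 7 and (0.012) without adult rat 4. That check on named genes and lists, and the 4 on early exercise rats, were added after seeing the data. Replicate numbers did not pair rats (correlation of deviations -0.34 to 0.30, 2 of 7 above 0.1). With the replicate block 850 probes passed (432 higher, 418 lower), 1 named call, Acot1, was lost, and the difference between sedentary and early exercise rats stayed at 0. It stayed at 0 in its other 4 alternatives too. The 7 rats per age limit the precision, with a median standard error of 0.108.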
